A study of Caenorhabditis elegans with 12 samples.

Results

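The subject is the difference between 2 RNA immunoprecipitation (IP) enrichments in the nematode Caenorhabditis elegans: the enrichment of each mRNA with FLAG-tagged CEY-1 minus its enrichment with FLAG-tagged CEY-4. The members were chosen by library label, and they are the 8 of the series' 12 libraries that carry the CEY1 or CEY4 strain name. An enrichment is the log2 ratio of a FLAG IP to a mock IP with anti-MYC antibody from the same strain. A positive difference means that the mRNA was more enriched, or less depleted, with CEY1 than with CEY4. The groups were CEY1 FLAG, CEY1 MYC, CEY4 FLAG and CEY4 MYC, with 2 libraries each.

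All 8 libraries came from whole young adult worms that had hatched to L1 larvae, were fed OP50 bacteria and were frozen in liquid nitrogen. The CEY1 strain carried the transgene rrrSi300, in which the cey-1 promoter drives 1 copy of the FLAG tag fused to the cey-1 open reading frame with its own 3′ end. The CEY4 strain carried rrrSi307, in which the dpy-30 promoter drives FLAG fused to the cey-4 open reading frame with the cey-4 3′ end. Both transgenes went on, past an operon linker, with a PEST:GFPH2B reporter and the tbb-2 3′ end, both carried unc-119(+), and both sat on chromosome I. The strains thus differed in the tagged protein and also in the promoter that made it, and these cannot be told apart. The amount of tagged protein recovered was not analysed here. The labels do not say whether the 2 libraries of a group came from separate cultures, so p-values measure only the spread between libraries, which may be technical.

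Y-box proteins bind RNA through a conserved cold-shock domain and coat mRNAs with little sequence preference, packaging them into messenger ribonucleoproteins. They are abundant in germ cells, where stored maternal mRNAs are kept, and are known for effects on mRNA stability and translation. In C. elegans the family has the members CEY-1 to CEY-4. CEY-1 and CEY-4 are made in both the soma and the germ line, and CEY-2 and CEY-3 are germline proteins. The comparison asks which mRNAs were recovered to different degrees with CEY-1 and CEY-4.

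Library totals, in counts, were 28585012 and 22901604 in the CEY1 FLAG libraries and 4710522 and 6662708 in the CEY1 MYC libraries, and 29895167 and 29473989 in the CEY4 FLAG libraries and 12796091 and 11646388 in the CEY4 MYC libraries, and 15191 of 20179 genes passed the filter on low counts. FLAG libraries were concentrated on fewer genes, with 9027 to 9133 genes at 1 CPM or more (CPM being counts scaled to a common library total), against 12383 to 12689 genes in MYC libraries. The sums and levels from here on are CPM after TMM scaling, which sets libraries level on their typical gene. Vitellogenins, the yolk proteins made in the adult intestine, summed to 13921 to 17606 CPM in MYC libraries. The major sperm protein genes were near the detection limit in MYC libraries, at 7.1 to 12.3 CPM in sum over 10 tested genes, and 20 of 30 listed genes did not pass the filter. Levels compare a gene between libraries and are not per length, so they do not rank genes by abundance.

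Values after ± are standard errors (SE) of the log2 difference, and genes named below as higher or lower passed the test. Of 15191 genes tested, 5589 (36.8%) had a difference of enrichment past an adjusted p of 0.05 in edgeR's quasi-likelihood test. In 2751 genes (18.1%) enrichment was higher with CEY1, and in 2838 genes (18.7%) it was lower. A log2 difference of at least 1 was reached by 1340 of the higher genes (8.82% of genes tested) and 1065 of the lower ones (7.01%). In 2729 (18%) and 2815 (18.5%) genes every pairing of CEY1 libraries gave a higher, or every pairing a lower, enrichment than every pairing of CEY4 libraries. The median log2 difference over all tested genes was -0.0047, a value that TMM scaling sets close to 0.

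**Figure D1:**
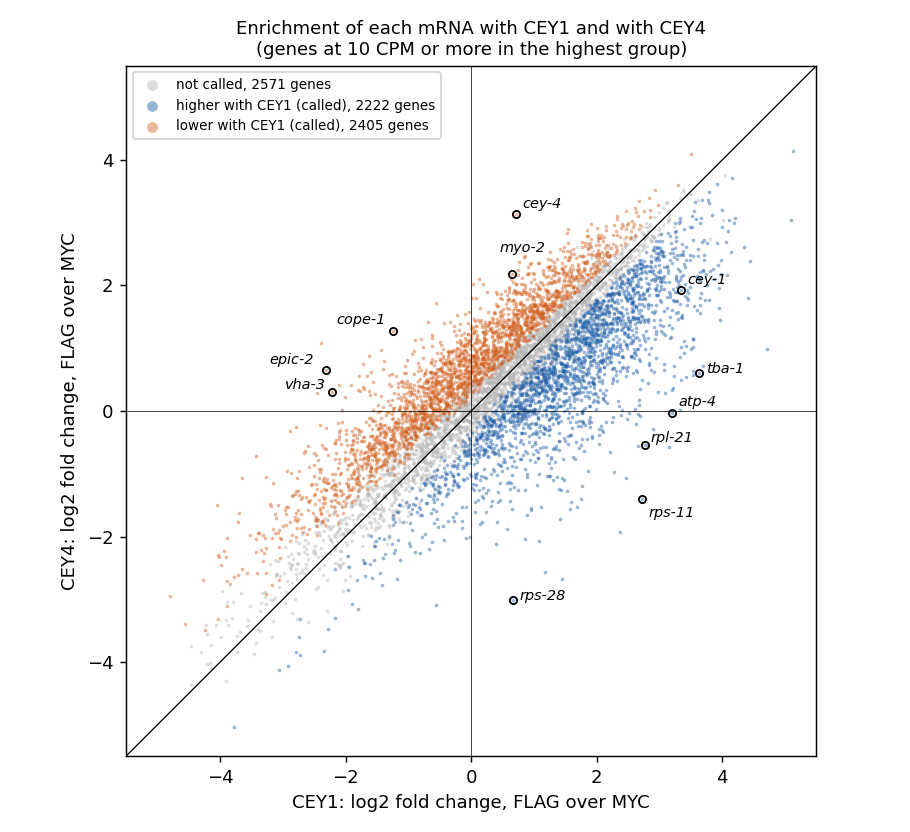
Log2 fold change of FLAG over MYC in the CEY1 strain (x axis) and the CEY4 strain (y axis) for 7198 genes whose highest group reached 10 CPM; each point is a gene, blue if the difference was called higher with CEY1, orange if lower, grey if not called. The cloud follows the diagonal of equal enrichment (r = 0.82 across genes), with rps-11 far to its right and epic-2 far to its left.

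Against its MYC control, 66.7% of tested genes were called with CEY1 (32.3% above and 34.4% below it) and 68.6% with CEY4 (31.5% above and 37.1% below). Of the higher genes, 1416 were above the MYC control in both strains and more so with CEY1, 490 were above it in CEY1 alone, and 354 were below it in CEY4 alone. Of the lower genes, 740 were below the control in both strains and more so with CEY1, 941 were above it in both, 474 were below it in CEY1 alone, and 335 were above it in CEY4 alone. A further 294 higher and 326 lower genes lay on opposite sides of the control in the 2 strains, each past the threshold. Which side of the control a gene falls on depends on the scaling: with total counts in place of TMM the median enrichment fell by 1.48 on the log2 scale in CEY1 and fell by 1.41 in CEY4. Only 28 of the 294 and 1 of the 326 genes were then still called on opposite sides, while the median difference between strains moved by -0.07. Above and below the control, and which libraries of a gene are called high or low, are therefore relative to the TMM scale throughout.

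The correlation across genes of the CEY1 and CEY4 enrichments was r = 0.82 over the 7198 genes at 10 CPM or more, r = 0.73 over 2982 genes at 100 CPM or more, and r = 0.50 over 474 genes at 1000 CPM or more. Genes are not independent replicates, and the points share their libraries. Among the 474 genes with most reads, 191 (40.3%) were called higher and 178 (37.6%) lower.

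The transgenes and the Y-box genes themselves were read first, since the tagged mRNAs check the labels. cey-4 mRNA had 925 and 889 CPM in the CEY1 FLAG libraries and 549.5 and 551 CPM in the CEY1 MYC libraries, and 6021 and 5967 CPM in the CEY4 FLAG libraries and 686 and 674 CPM in the CEY4 MYC libraries. It was highest in the CEY4 FLAG libraries, and its difference was -2.42 ± 0.07 SE (adjusted p = 5.45e-28). cey-1 mRNA had 2812 and 2559.9 CPM in the CEY1 FLAG libraries and 272 and 259 CPM in the CEY1 MYC libraries, and 528 and 531 CPM in the CEY4 FLAG libraries and 139 and 141 CPM in the CEY4 MYC libraries. It was highest in the CEY1 FLAG libraries and was also higher in CEY1 than in CEY4 controls, by 0.92 on the log2 scale, and its difference of enrichment was 1.42 ± 0.08 SE (adjusted p = 1.73e-18). In each strain the mRNA of the tagged protein was enriched, by 3.34 for cey-1 in CEY1 and by 3.14 for cey-4 in CEY4 on the log2 scale, and cey-1 was also enriched with CEY4, by 1.92. Counts of cey-1 and cey-4 do not separate the transgene from the endogenous gene.

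The germline paralogs gave different values from each other. cey-2 had 227 and 233 CPM in the CEY1 FLAG libraries and 674 and 736 CPM in the CEY1 MYC libraries, and 796 and 807 CPM in the CEY4 FLAG libraries and 689 and 662 CPM in the CEY4 MYC libraries. The CEY1 FLAG libraries were the low ones, and the difference was -1.86 ± 0.08 SE (adjusted p = 9.82e-23). cey-3, a close paralog of cey-2, had a log2 difference of -0.08 ± 0.08 SE (edgeR adjusted p = 0.494), and all 8 libraries lay between 228 and 303 CPM. Among genes whose sequence is part of the transgenes, tbb-2, a beta-tubulin whose 3′ end both constructs carry, was higher with CEY1 by 1.38 ± 0.07, unc-119 was higher by 2.43 ± 0.50 with libraries between 0.527 and 3.76 CPM, and dpy-30 had -0.43 ± 0.22 (adjusted p = 0.128). The dpy-30 value rests on the CEY1 controls, since it was 0.033 without CEY1 MYC replicate 1 and -0.87 without CEY1 MYC replicate 2. lin-28, an RNA-binding protein with its own cold-shock domain, had 0.41 ± 0.17 (adjusted p = 0.0559) and passed the threshold in 7 of 16 alternative settings, among them RLE scaling and a fit of only the CEY1 and CEY4 libraries. Of these 8 genes 3 were called higher and 2 lower.

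Among genes more enriched with CEY1, mRNAs of cytosolic ribosomal proteins led. rps-11, a protein of the small subunit, had 2192 and 2119 CPM in the CEY1 FLAG libraries and 321 and 334 CPM in the CEY1 MYC libraries, and 99.8 and 103 CPM in the CEY4 FLAG libraries and 291 and 243 CPM in the CEY4 MYC libraries. The CEY1 FLAG libraries stood above both controls and the CEY4 FLAG libraries below them, for a difference of 4.11 ± 0.09 SE (adjusted p = 7.48e-32). rpl-25.2, of the large subunit, had 2892 and 2889 CPM in the CEY1 FLAG libraries and 567 and 477 CPM in the CEY1 MYC libraries, and 216 and 223 CPM in the CEY4 FLAG libraries and 483 and 436 CPM in the CEY4 MYC libraries. The pattern was the same, with a difference of 3.54 ± 0.09 SE (adjusted p = 4.81e-30). rpl-21 had 5726 and 5833 CPM in the CEY1 FLAG libraries and 896 and 807 CPM in the CEY1 MYC libraries, and 488 and 509 CPM in the CEY4 FLAG libraries and 768 and 678 CPM in the CEY4 MYC libraries, and its difference was 3.30 ± 0.10 SE (adjusted p = 5.45e-28). These 3 mRNAs kept opposite signs in the 2 strains with total-count scaling, at 1.23 and -2.81 for rps-11, 0.99 and -2.48 for rpl-25.2, and 1.28 and -1.95 for rpl-21 in CEY1 and in CEY4.

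rps-28 had 199.6 and 157 CPM in the CEY1 FLAG libraries and 109.8 and 115 CPM in the CEY1 MYC libraries, and 9.78 and 10.2 CPM in the CEY4 FLAG libraries and 93.3 and 67.4 CPM in the CEY4 MYC libraries. Its difference of 3.67 ± 0.17 SE (adjusted p = 1.83e-21) came mostly from its low level in the CEY4 FLAG libraries. With total-count scaling rps-28 was below the control in both strains, at -0.82 in CEY1 and -4.42 in CEY4, with a difference of 3.59. rpl-34 differed at 3.04 ± 0.12 SE (adjusted p = 4.21e-24), with an enrichment of 1.59 in CEY1 and -1.46 in CEY4.

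**Figure D2:**
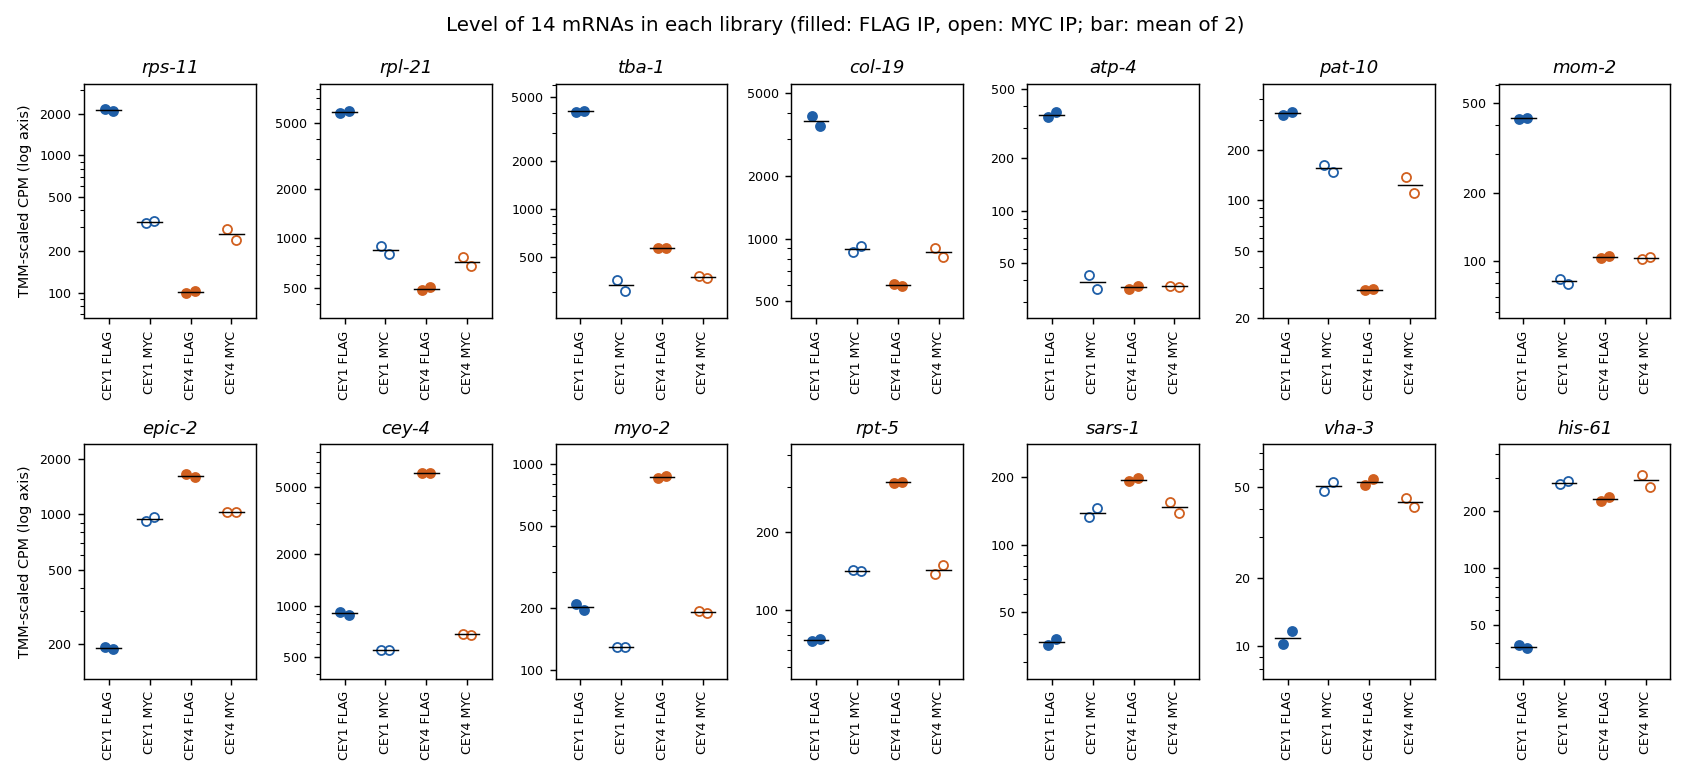
TMM-scaled CPM (log axes) of 14 mRNAs in each of the 8 libraries; filled points are FLAG IPs, open points MYC IPs, blue CEY1, orange CEY4, and bars are means of 2 libraries. In the upper row the CEY1 FLAG points stand apart above the rest, as for rps-11 at 2192 and 2119 CPM; in the lower row they lie below the CEY4 FLAG points, as for epic-2 at 192 and 188 CPM.

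The other genes at the top of the higher side had varied roles. atp-4, a subunit of the mitochondrial ATP synthase, had 346 and 369 CPM in the CEY1 FLAG libraries and 42.6 and 35.6 CPM in the CEY1 MYC libraries, and 35.4 and 37.1 CPM in the CEY4 FLAG libraries and 37.2 and 36.6 CPM in the CEY4 MYC libraries. On the TMM scale the CEY1 FLAG libraries were high and the other 6 were alike, and the difference was 3.23 ± 0.12 SE (adjusted p = 1.35e-24). With total-count scaling atp-4 had log2 enrichments of 1.72 in CEY1 and -1.44 in CEY4. mtss-1, the mitochondrial single-stranded DNA-binding protein, had 319 and 323 CPM in the CEY1 FLAG libraries and 50.3 and 37.2 CPM in the CEY1 MYC libraries, and 37.3 and 35.1 CPM in the CEY4 FLAG libraries and 47.3 and 41.3 CPM in the CEY4 MYC libraries, and its difference was 3.19 ± 0.13 SE (adjusted p = 3.24e-23). pat-10, the troponin C of body wall muscle, had 319.9 and 335 CPM in the CEY1 FLAG libraries and 163 and 148 CPM in the CEY1 MYC libraries, and 29.4 and 29.5 CPM in the CEY4 FLAG libraries and 138 and 110.2 CPM in the CEY4 MYC libraries. It was above its control in CEY1 and below it in CEY4, with a difference of 3.16 ± 0.13 SE (adjusted p = 2.27e-23), although total-count scaling put it below the control in both strains (-0.41 and -3.49).

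cyn-7, a cyclophilin, had 789.5 and 771 CPM in the CEY1 FLAG libraries and 248 and 277 CPM in the CEY1 MYC libraries, and 88.4 and 94.0 CPM in the CEY4 FLAG libraries and 279.8 and 256 CPM in the CEY4 MYC libraries, and famh-136 had 118 and 105 CPM in the CEY1 FLAG libraries and 30.7 and 35.4 CPM in the CEY1 MYC libraries, and 12.2 and 12.2 CPM in the CEY4 FLAG libraries and 35.7 and 28.9 CPM in the CEY4 MYC libraries. Their differences were 3.13 ± 0.09 and 3.15 ± 0.16, and in each the 2 controls were alike while the FLAG libraries lay on opposite sides of them. With total-count scaling the CEY1 enrichments of cyn-7 and famh-136 were 0.08 and 0.25 and the CEY4 ones -2.97 and -2.82. pqn-94, which codes for a glutamine- and asparagine-rich protein, had 26.9 and 29.7 CPM in the CEY1 FLAG libraries and 5.17 and 3.99 CPM in the CEY1 MYC libraries, and 2.46 and 2.34 CPM in the CEY4 FLAG libraries and 2.8 and 4.28 CPM in the CEY4 MYC libraries, a difference of 3.20 ± 0.32 SE (adjusted p = 5.39e-11). ssp-35, of the sperm-specific protein family, had 12.8 and 11.8 CPM in the CEY1 FLAG libraries and 5.31 and 5.6 CPM in the CEY1 MYC libraries, and 0.762 and 0.539 CPM in the CEY4 FLAG libraries and 4.52 and 3.27 CPM in the CEY4 MYC libraries, a difference of 3.74 ± 0.39 SE (adjusted p = 1.38e-10). With total-count scaling ssp-35 had an enrichment of -0.32 in CEY1 and -3.97 in CEY4.

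On the lower side, epic-2 had 192 and 188 CPM in the CEY1 FLAG libraries and 927 and 964 CPM in the CEY1 MYC libraries, and 1648 and 1584 CPM in the CEY4 FLAG libraries and 1027 and 1032 CPM in the CEY4 MYC libraries. Its CEY1 FLAG libraries were far below both controls and its CEY4 FLAG libraries above them, a difference of -2.97 ± 0.07 SE (adjusted p = 4.81e-30). The next genes belong to membrane traffic and acidification. cope-1, a coatomer subunit of COPI vesicles, had 14.2 and 13.7 CPM in the CEY1 FLAG libraries and 36.6 and 30.8 CPM in the CEY1 MYC libraries, and 66.9 and 70.5 CPM in the CEY4 FLAG libraries and 28.6 and 28.05 CPM in the CEY4 MYC libraries, and the difference was -2.53 ± 0.15 SE (adjusted p = 6.34e-18). aps-1, the small subunit of the AP-1 clathrin adaptor, had 4.02 and 4.46 CPM in the CEY1 FLAG libraries and 18.3 and 18.04 CPM in the CEY1 MYC libraries, and 18.98 and 19.1 CPM in the CEY4 FLAG libraries and 15.3 and 13.2 CPM in the CEY4 MYC libraries, a difference of -2.52 ± 0.21 SE (adjusted p = 3.25e-13). Both lay below the control in CEY1 and above it in CEY4. vha-3, a proteolipid subunit of the V-ATPase proton pump, had 10.2 and 11.7 CPM in the CEY1 FLAG libraries and 48.1 and 52.4 CPM in the CEY1 MYC libraries, and 50.8 and 54.2 CPM in the CEY4 FLAG libraries and 44.7 and 40.8 CPM in the CEY4 MYC libraries. The CEY1 FLAG libraries were the low ones and the other 6 libraries were close to each other, with a difference of -2.51 ± 0.15 SE (adjusted p = 6.4e-18).

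sars-1, the seryl-tRNA synthetase, had 35.8 and 38.1 CPM in the CEY1 FLAG libraries and 132 and 145 CPM in the CEY1 MYC libraries, and 192 and 197 CPM in the CEY4 FLAG libraries and 155 and 138 CPM in the CEY4 MYC libraries. It too was low in the CEY1 FLAG libraries, with a difference of -2.33 ± 0.11 SE (adjusted p = 2.87e-21). byn-1, a bystin homologue, had 48.0 and 47.8 CPM in the CEY1 FLAG libraries and 71.1 and 70.8 CPM in the CEY1 MYC libraries, and 227 and 218 CPM in the CEY4 FLAG libraries and 68.4 and 66.2 CPM in the CEY4 MYC libraries. In byn-1 the CEY4 FLAG libraries were the high ones, and the difference was -2.29 ± 0.10 SE (adjusted p = 2.08e-21). mctp-1, a membrane protein with C2 domains, nas-11, an astacin-family metalloprotease, and sel-12, a presenilin, differed at -2.41 ± 0.24, -2.35 ± 0.14 and -2.21 ± 0.26. With total-count scaling epic-2, cope-1, aps-1, vha-3, sars-1, mctp-1, nas-11 and sel-12 had negative log2 enrichments in both strains, with values in CEY4 between -1.12 and -0.14, while byn-1 stayed above its control in CEY4 at 0.31.

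The cytosolic ribosomal protein mRNAs as a group spread widely. Of 32 tested genes of the small subunit, 18 were called higher with CEY1 and 9 lower, with a median log2 difference of 0.39. Of 49 genes of the large subunit, 28 were called higher and 11 lower, with a median of 0.58. The background was 18.1% higher and 18.7% lower over all tested genes, against 56.8% higher and 24.7% lower over the 81 genes. Of the 2982 genes at 100 CPM or more, 39.7% were higher and 36.9% lower, and against these only the higher share was greater. A difference of 2 or more on the log2 scale was reached by 16 genes upward and by none downward. Read as summed levels, the small subunit genes made up 45180.5 and 47352 CPM in the CEY1 FLAG libraries and 16859.8 and 15778 CPM in the CEY1 MYC libraries, and 14201 and 14311 CPM in the CEY4 FLAG libraries and 13635 and 12804 CPM in the CEY4 MYC libraries. The large subunit genes summed to 71312 and 69679 CPM in the CEY1 FLAG libraries and 23622 and 23756 CPM in the CEY1 MYC libraries, and 19727 and 20104 CPM in the CEY4 FLAG libraries and 20471 and 18289 CPM in the CEY4 MYC libraries. On the TMM scale the CEY1 FLAG libraries alone stood apart, and the other 3 groups were within a narrower band in both sums. The TMM factors, which multiply the library totals, were 0.548 to 0.571 in FLAG and 1.51 to 1.58 in MYC libraries. Which group stands apart in these sums therefore depends on the scaling.

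**Figure D3:**
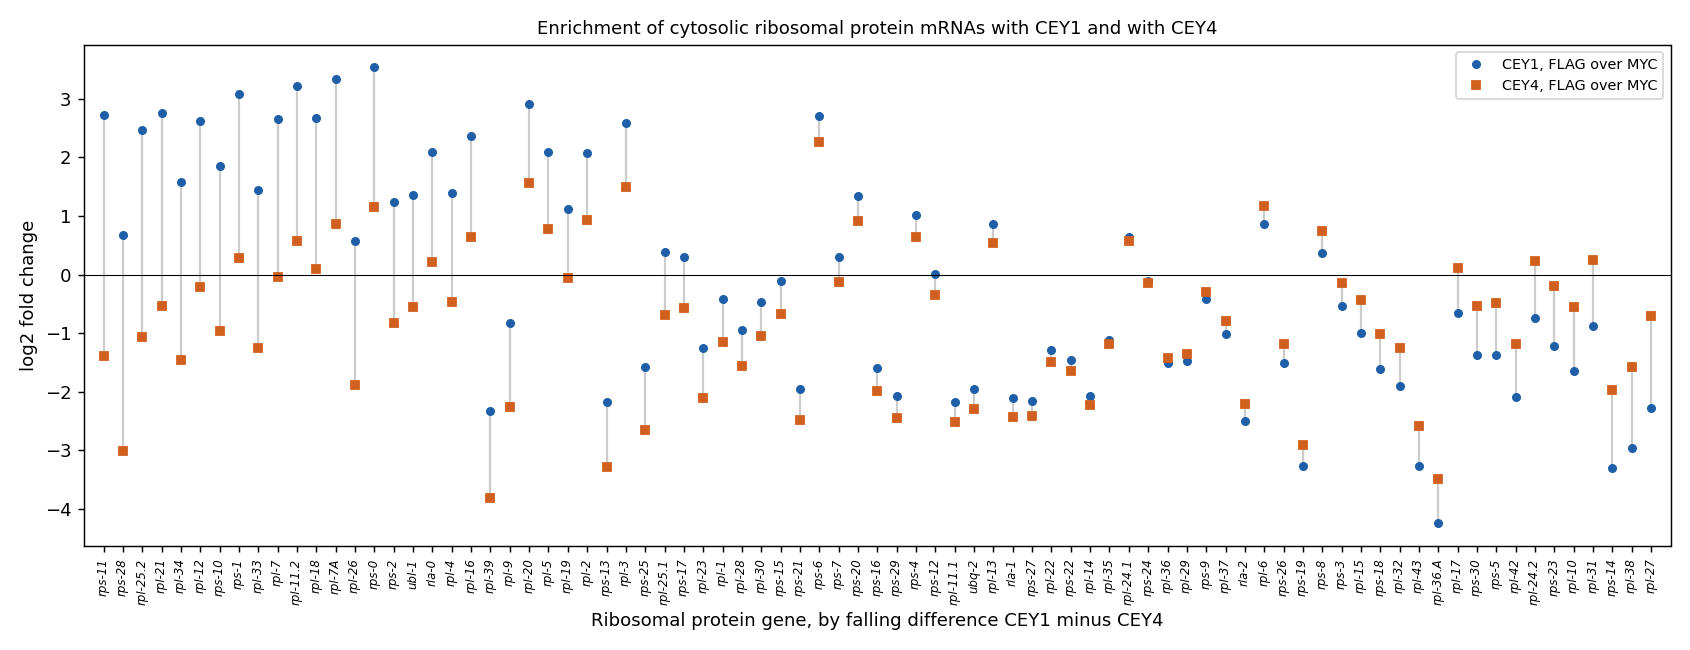
Log2 fold change of FLAG over MYC for each of 81 cytosolic ribosomal protein mRNAs in CEY1 (blue circles) and CEY4 (orange squares), ordered by the difference of the 2. The difference runs from 4.11 for rps-11 on the left to -1.58 for rpl-27 on the right, and the CEY1 points spread over a wider range than the CEY4 points.

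The ribosomal protein mRNAs did not move as a block. Their enrichments had a standard deviation across genes of 1.94 with CEY1 and 1.29 with CEY4. Of the 46 higher genes, 14 were above the control in both strains, 4 in CEY1 alone, 14 were on opposite sides, 2 were below it in CEY4 alone, and 12 were below it in both. rps-1 had 7384 and 7100.1 CPM in the CEY1 FLAG libraries and 851 and 854 CPM in the CEY1 MYC libraries, and 821 and 844 CPM in the CEY4 FLAG libraries and 727 and 643 CPM in the CEY4 MYC libraries, a difference of 2.80 ± 0.08 SE (adjusted p = 4.18e-28). rps-0 had 14080.4 and 15677 CPM in the CEY1 FLAG libraries and 1408 and 1161 CPM in the CEY1 MYC libraries, and 2422 and 2476 CPM in the CEY4 FLAG libraries and 1066 and 1138 CPM in the CEY4 MYC libraries, a difference of 2.38 ± 0.08 SE (adjusted p = 2.42e-25). For both, the CEY4 FLAG libraries also lay above their own controls on the TMM scale. With total-count scaling the CEY4 enrichments were -1.13 for rps-1 and -0.26 for rps-0. rps-10, rpl-12 and rpl-11.2 differed at 2.82 ± 0.09, 2.84 ± 0.08 and 2.66 ± 0.08.

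Of the 20 lower ribosomal protein genes, 15 were below the control in both strains, 1 in CEY1 alone, 2 were above it in both and 2 were on opposite sides. The lowest were rpl-27 at -1.58, rpl-38 at -1.39 and rps-14 at -1.33 on the log2 scale, 3 genes picked out after their values were seen. rps-14 was depleted in both strains, at -3.31 with CEY1 and -1.98 with CEY4. In the controls, 63 of the 81 genes were called higher in CEY1 than in CEY4 MYC libraries and 1 lower, against 6.2% higher and 8.33% lower over all tested genes. The median log2 control difference was 0.35 for the small and 0.30 for the large subunit. A control level higher in CEY1 takes away from a positive difference of enrichment and adds to a negative one. All 46 higher genes were also called higher in CEY1 than in CEY4 FLAG libraries, while of the 20 lower genes 15 were called lower there and 5 were not called. For those 5 genes, rpl-6, rps-26, rps-19, rps-8 and rps-3, the FLAG libraries differed by -0.04 to 0.09 on the log2 scale and the controls by 0.35 to 0.46. Of these only rps-3 had a negative FLAG value, and in the others the control difference exceeded the called value in size. These 5 genes were singled out after their values were seen. In 7 of the 20 lower genes the control difference was larger in size than the FLAG difference.

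Other parts of the translation machinery followed no common direction. Of 46 translation factors 17 were called higher and 18 lower, with a median of -0.00088. eif-2gamma, a subunit of the initiation factor that brings the initiator tRNA, was higher, at 1.62 ± 0.09 SE (adjusted p = 2.66e-18). ife-1 and ife-3, cap-binding eIF4E proteins, were lower, at -1.80 ± 0.11 and -1.19 ± 0.10. eef-1A.1, the elongation factor that delivers aminoacyl-tRNA, had 13953 and 13511 CPM in the CEY1 FLAG libraries and 3294 and 3066 CPM in the CEY1 MYC libraries, and 6401 and 6497 CPM in the CEY4 FLAG libraries and 2768 and 2515 CPM in the CEY4 MYC libraries. Its difference was 0.82 ± 0.07, and pab-1, the poly(A)-binding protein, was higher, at 0.47 ± 0.07.

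Aminoacyl-tRNA synthetase mRNAs leaned the other way. Of 32 tested, 17 were called lower with CEY1 (53.1%) and 6 higher (18.8%), with a median of -0.28 (-0.36 with total-count scaling). Besides sars-1, lars-2 was lower, at -1.09 ± 0.10 and aars-2 at -0.93 ± 0.08. lars-2 had 74.97 and 69.5 CPM in the CEY1 FLAG libraries and 91.3 and 87.1 CPM in the CEY1 MYC libraries. It had 161 and 162 CPM in the CEY4 FLAG libraries and 92.7 and 94.3 CPM in the CEY4 MYC libraries. On the TMM scale the CEY4 FLAG libraries were the high ones. With total-count scaling lars-2 was below the control in both strains, at -1.79 in CEY1 and -0.63 in CEY4. sars-2, the other seryl-tRNA synthetase gene, picked out after its value was seen, had 1.01 where sars-1 had -2.33. Mitochondrial ribosomal proteins, with 21 higher and 17 lower of 69 and a median of -0.12, were closer to the background; mrps-11, mrpl-1 and mrpl-2 were higher by 2.05, 1.57 and 1.56.

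**Figure D4:**
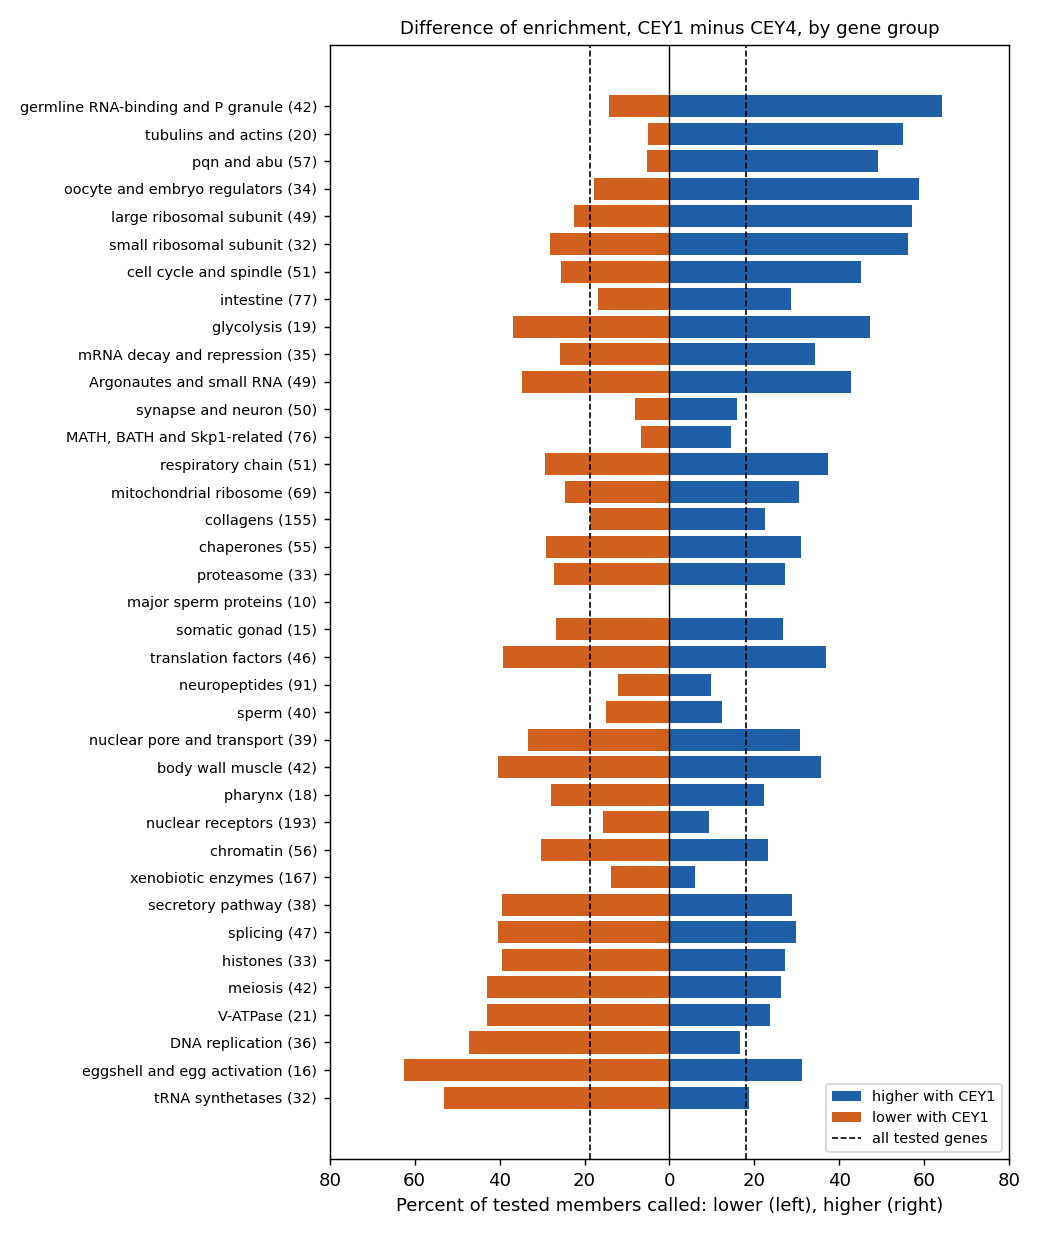
Percent of the tested members of each gene group called lower with CEY1 (orange, left) and higher with CEY1 (blue, right); the number tested stands in brackets, dashed lines are the 18.7% and 18.1% of all tested genes, and groups under 10 tested genes are left out. Germline RNA-binding genes, tubulins and actins, and pqn and abu genes lean to the right, and tRNA synthetases and eggshell genes lean to the left.

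Germline regulators of mRNA were more often higher with CEY1. In the list of P granule and other RNA-binding proteins of the germ line, 27 of 42 were called higher (64.3%) and 6 lower (14.3%), with a median of 0.56. On the TMM scale 36 of the 42 were above the control with CEY1 and 37 with CEY4, against 32.3% and 31.5% of all tested genes. sqd-1, an hnRNP-like RNA-binding protein, had 4699.7 and 4464 CPM in the CEY1 FLAG libraries and 450.01 and 450.4 CPM in the CEY1 MYC libraries, and 1226 and 1265 CPM in the CEY4 FLAG libraries and 439 and 445 CPM in the CEY4 MYC libraries. The difference was 1.85 ± 0.07 SE (adjusted p = 4.19e-24). gld-2, the cytoplasmic poly(A) polymerase, and rnp-8, an RNA-binding partner of GLD-2, were higher, at 1.49 ± 0.08 and 1.84 ± 0.09. With total-count scaling sqd-1, rnp-8 and gld-2 had log2 enrichments of 1.86, 1.87 and 1.59 in CEY1. In CEY4 they had 0.08, 0.11 and 0.17, and of these only gld-2 was called. gld-2 had 1446 and 1423 CPM in the CEY1 FLAG libraries and 179.7 and 162 CPM in the CEY1 MYC libraries, and 802 and 789 CPM in the CEY4 FLAG libraries and 252 and 276 CPM in the CEY4 MYC libraries, and its level was lower in CEY1 than in CEY4 controls, at -0.63 on the log2 scale.

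The oocyte and embryo regulators gave 20 higher (58.8%) and 6 lower (17.6%) of 34, with a median of 0.38. mex-5, a zinc-finger protein that polarises the zygote, had 4008 and 3952 CPM in the CEY1 FLAG libraries and 332 and 265 CPM in the CEY1 MYC libraries, and 1543 and 1559 CPM in the CEY4 FLAG libraries and 342 and 341 CPM in the CEY4 MYC libraries. Both FLAG groups stood far above the controls and CEY1 more so, with a difference of 1.56 ± 0.09 SE (adjusted p = 2.19e-18). mex-1, a related zinc-finger protein, was higher, at 1.57 ± 0.09 SE (adjusted p = 1.38e-18). mom-2, a Wnt ligand of the early embryo, had 427 and 432 CPM in the CEY1 FLAG libraries and 84.0 and 79.7 CPM in the CEY1 MYC libraries, and 104.1 and 106 CPM in the CEY4 FLAG libraries and 102 and 105 CPM in the CEY4 MYC libraries. On the TMM scale it was enriched with CEY1 alone, since the CEY4 FLAG libraries were level with their controls. Its difference was 2.37 ± 0.09 SE (adjusted p = 7.2e-24). With total-count scaling mom-2 had log2 enrichments of 0.90 in CEY1 and -1.39 in CEY4. In this list 12 of the 34 genes were called lower in CEY1 than in CEY4 controls, against 8.33% of all tested genes.

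Eggshell and egg activation genes leaned lower, 10 of 16 (62.5%) against 5 higher (31.3%), with a median of -0.38. Over all tested genes 18.7% were lower and 18.1% higher, and at 100 CPM or more 36.9% and 39.7%. With 16 genes the list is small to set against these shares. egg-2, an egg surface receptor-like protein, was lower, at -0.83 ± 0.08 SE (adjusted p = 2.45e-11). cbd-1, a chitin-binding eggshell protein, had 13125 and 12882 CPM in the CEY1 FLAG libraries and 2750.4 and 2490.4 CPM in the CEY1 MYC libraries, and 15715 and 15712 CPM in the CEY4 FLAG libraries and 2680.1 and 2769 CPM in the CEY4 MYC libraries, a difference of -0.22 ± 0.06 SE (adjusted p = 0.00566) that no longer passed the threshold with only the CEY1 and CEY4 libraries in the fit. mbk-2, the kinase of egg activation, and perm-4, a permeability barrier protein, were higher, at 1.27 ± 0.08 and 1.66 ± 0.11. cpg-1, an eggshell proteoglycan, was higher, at 0.29 ± 0.07 SE (adjusted p = 0.0011).

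Vitellogenins moved together. All 6 tested genes were called lower with CEY1 (5 to 6 over the alternatives), between -0.50 and -0.24, with a median of -0.34. None was higher at an unadjusted p under 0.05, in DESeq2 or in limma on the deposited log2 values. vit-6 had 33954 and 32100.4 CPM in the CEY1 FLAG libraries and 7744 and 7244 CPM in the CEY1 MYC libraries, and 52694 and 53616 CPM in the CEY4 FLAG libraries and 8627 and 8459 CPM in the CEY4 MYC libraries. It was strongly enriched with both proteins, by 2.14 and 2.64, and its difference was -0.50 ± 0.06 SE (adjusted p = 3.87e-09). vit-2 had 32365 and 30876 CPM in the CEY1 FLAG libraries and 4961 and 4855 CPM in the CEY1 MYC libraries, and 46093 and 47812 CPM in the CEY4 FLAG libraries and 6236 and 5869 CPM in the CEY4 MYC libraries, a difference of -0.27 ± 0.06 SE (adjusted p = 0.000411). All 6 were also called lower in CEY1 than in CEY4 controls, with a median of -0.40, and a control difference in this direction takes away from the difference of enrichment. Counts of the near-identical vitellogenin paralogs vit-3, vit-4 and vit-5 may be split between them, since the treatment of shared reads is not given in the sources used here.

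Small RNA genes were called in both directions. Of 49 tested in the Argonaute and small RNA list, 21 were called higher and 17 lower, with a median of 0.21. prg-1, the Piwi protein, had 2346 and 2190.2 CPM in the CEY1 FLAG libraries and 419.7 and 455 CPM in the CEY1 MYC libraries, and 889.5 and 899.6 CPM in the CEY4 FLAG libraries and 445 and 429 CPM in the CEY4 MYC libraries, a difference of 1.34 ± 0.08 SE (adjusted p = 1.93e-18). The RNA-dependent RNA polymerases rrf-3 and ego-1 were lower, at -1.47 ± 0.08 and -0.94 ± 0.08. rrf-3 had 251 and 239 CPM in the CEY1 FLAG libraries and 159 and 157 CPM in the CEY1 MYC libraries, and 757 and 774 CPM in the CEY4 FLAG libraries and 177 and 178 CPM in the CEY4 MYC libraries, with the CEY4 FLAG libraries the high ones. Among genes of mRNA decay and repression, 12 of 35 were higher and 9 lower (median -0.16). car-1, an RNA-binding protein of germline granules, was higher, at 1.84 ± 0.10, and the CCR4-NOT components ntl-4 and ccr-4 at 1.24 ± 0.08 and 1.18 ± 0.09.

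Nuclear gene groups differed from one another. Over all tested genes 18.1% were higher and 18.7% lower, and over those at 100 CPM or more 39.7% and 36.9%. DNA replication genes gave 6 higher (16.7%) and 17 lower (47.2%) of 36 (median -0.18). crn-1, a flap endonuclease, and pri-2, a primase subunit, were lower, at -1.32 ± 0.09 and -1.38 ± 0.10, while mcm-4, of the replicative helicase, was higher, at 0.99 ± 0.08. Meiosis genes gave 11 higher and 18 lower of 42 (median -0.23), with the axis proteins htp-3 and him-3 lower, at -1.01 ± 0.09 and -1.33 ± 0.13 and zhp-2 higher, at 1.56 ± 0.15. Cell cycle and spindle genes gave 23 higher (45.1%) and 13 lower (25.5%) of 51 (median 0.14), the higher share being near that of genes at 100 CPM or more. bub-1, a spindle checkpoint kinase, icp-1, the inner centromere protein, and ify-1, the securin, were higher, at 1.44 ± 0.08, 1.51 ± 0.08 and 1.37 ± 0.09.

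Splicing genes gave 14 higher and 19 lower of 47 (median -0.10), and the helicases mog-4 and mog-1 were lower, at -1.65 ± 0.09 and -1.37 ± 0.09. mog-4 had 121.6 and 124 CPM in the CEY1 FLAG libraries and 139 and 125 CPM in the CEY1 MYC libraries. It had 433 and 424 CPM in the CEY4 FLAG libraries and 145 and 149 CPM in the CEY4 MYC libraries. On the TMM scale only the CEY4 FLAG libraries lay apart from the rest. With total-count scaling mog-4 had log2 enrichments of -1.59 in CEY1 and 0.13 in CEY4. sap-49, of the SF3b complex, was higher, at 1.58 ± 0.09 SE (adjusted p = 8.36e-18). Nuclear pore and transport genes gave 12 higher and 13 lower of 39 (median -0.01), npp-11 being higher, at 1.75 ± 0.08 and npp-12 and npp-2 lower, at -0.84 ± 0.08 and -0.998 ± 0.09. Chromatin genes gave 13 higher and 17 lower of 56 (median -0.03). The chromodomain genes cec-7 and cec-10 were lower, at -1.86 ± 0.10 and -0.87 ± 0.08, and mrg-1 was higher, at 1.21 ± 0.10.

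Histone genes gave 9 higher and 13 lower of 33 tested (median -0.04), and 48 of 81 listed did not pass the filter. his-61 had 39.1 and 37.7 CPM in the CEY1 FLAG libraries and 277 and 289.6 CPM in the CEY1 MYC libraries, and 228 and 238 CPM in the CEY4 FLAG libraries and 312 and 270.3 CPM in the CEY4 MYC libraries. The CEY1 FLAG libraries were the low ones, with a difference of -2.56 ± 0.10 SE (adjusted p = 5.16e-23). his-62 and his-67 were lower, at -1.92 ± 0.09 and -2.21 ± 0.11. Replication-dependent histone mRNAs carry no poly(A) tail and come from repeated, near-identical genes, so single histone genes are uncertain.

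Cytoskeletal mRNAs were largely higher. Of 20 tubulin and actin genes 11 were called higher (55%) and 1 lower (5%; 0 to 2 over the alternatives), with a median of 0.95. tba-1, an alpha-tubulin, had 4075 and 4122 CPM in the CEY1 FLAG libraries and 356 and 305 CPM in the CEY1 MYC libraries, and 564 and 566 CPM in the CEY4 FLAG libraries and 379.9 and 365 CPM in the CEY4 MYC libraries. On the TMM scale both FLAG groups were above their controls and CEY1 by far the more, a difference of 3.03 ± 0.08 SE (adjusted p = 3.13e-29). With total-count scaling tba-1 had an enrichment of 2.15 in CEY1 and -0.81 in CEY4. act-4, an actin, had 5927 and 5939 CPM in the CEY1 FLAG libraries and 1078 and 1105 CPM in the CEY1 MYC libraries, and 1899 and 1929 CPM in the CEY4 FLAG libraries and 833 and 792 CPM in the CEY4 MYC libraries, a difference of 1.21 ± 0.07 SE (adjusted p = 2.68e-18). The tubulin and actin genes are close paralogs, and reads shared between them may be divided in an unknown way. Of 21 V-ATPase subunits 5 were higher (23.8%) and 9 lower (42.9%), with a median of -0.13. Of all genes at 100 CPM or more 39.7% were higher and 36.9% lower. vha-16 and vha-14 were higher, at 1.95 ± 0.11 and 1.303 ± 0.09, while vha-3 was lower.

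Metabolic groups were called in both directions. Glycolysis genes gave 9 higher (47.4%) and 7 lower (36.8%) of 19 (median 0.23), against 39.7% and 36.9% of all genes at 100 CPM or more. On the TMM scale 5 of the higher and 3 of the lower lay on opposite sides of the control in the 2 strains. Over all 15191 tested genes these numbers were 294 and 326. aldo-2, an aldolase, had 684 and 692 CPM in the CEY1 FLAG libraries and 442 and 459 CPM in the CEY1 MYC libraries, and 274 and 260.4 CPM in the CEY4 FLAG libraries and 595 and 572 CPM in the CEY4 MYC libraries, a difference of 1.74 ± 0.08 SE (adjusted p = 6.5e-22). With total-count scaling aldo-2 was below the control in both strains, at -0.88 in CEY1 and -2.54 in CEY4. pgk-1, phosphoglycerate kinase, was higher, at 1.74 ± 0.12 and hxk-1, a hexokinase, lower, at -1.095 ± 0.08. Respiratory chain and ATP synthase genes gave 19 higher and 15 lower of 51 (median 0.15). nuo-3 and nduf-5, subunits of complex I, were higher, at 2.06 ± 0.12 and 1.67 ± 0.13, next to atp-4.

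Proteasome genes gave 9 higher and 9 lower of 33 (median -0.07). rpn-5 and rpn-12, non-ATPase subunits of the regulatory particle, were higher, at 1.78 ± 0.08 and 1.53 ± 0.12, while rpt-5, a base ATPase, had 75.5 and 77.2 CPM in the CEY1 FLAG libraries and 142 and 141 CPM in the CEY1 MYC libraries, and 311 and 315 CPM in the CEY4 FLAG libraries and 138 and 149 CPM in the CEY4 MYC libraries. On the TMM scale the CEY4 FLAG libraries were high for rpt-5 and the CEY1 FLAG libraries low, a difference of -2.02 ± 0.10 SE (adjusted p = 2.03e-20). With total-count scaling rpt-5 was below the control in both strains, at -2.38 in CEY1 and -0.29 in CEY4. Chaperones gave 17 higher and 16 lower of 55 (median -0.06), and subunits of the same CCT ring differed in direction, cct-8 at 1.51 ± 0.10 and cct-3 at -1.67 ± 0.11. unc-45, a myosin chaperone, was lower, at -1.42 ± 0.10 SE (adjusted p = 3.87e-15). Secretory pathway genes gave 11 higher and 15 lower of 38 (median -0.27), with the translocon-associated trap-1 and trap-3 higher, at 1.99 ± 0.09 and 1.49 ± 0.10.

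Somatic tissues were read from their marker lists, and in whole worms fewer cells of a type and less RNA per cell cannot be told apart. Body wall muscle genes gave 15 higher and 17 lower of 42 (median -0.08), and atn-1, an alpha-actinin, had 309 and 313 CPM in the CEY1 FLAG libraries and 156 and 139 CPM in the CEY1 MYC libraries, and 63.2 and 61.4 CPM in the CEY4 FLAG libraries and 128 and 122.4 CPM in the CEY4 MYC libraries, a difference of 2.09 ± 0.10 SE (adjusted p = 2.29e-21). In the pharynx list 4 were higher and 5 lower of 18 (median -0.14). myo-2, the pharyngeal myosin heavy chain, had 211 and 196 CPM in the CEY1 FLAG libraries and 130.4 and 130.5 CPM in the CEY1 MYC libraries, and 861 and 876 CPM in the CEY4 FLAG libraries and 194 and 189.8 CPM in the CEY4 MYC libraries. It was lower, at -1.53 ± 0.08, and myo-1, the other pharyngeal myosin heavy chain, at -0.91 ± 0.08, while tni-4, a pharyngeal troponin I, was higher, at 2.296 ± 0.15. myo-2 and myo-1 were also lower in the CEY1 than in the CEY4 controls, at -0.56 and -0.46 on the log2 scale.

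Intestinal genes gave 22 higher (28.6%) and 13 lower (16.9%; 8 without CEY1 FLAG replicate 2) of 77 (median 0.19), and 26 of the 77 were higher in CEY1 than in CEY4 controls, against 6.2% of all tested genes. asp-6, an aspartyl protease, had 10077 and 9909 CPM in the CEY1 FLAG libraries and 993 and 1094 CPM in the CEY1 MYC libraries, and 1655 and 1677 CPM in the CEY4 FLAG libraries and 587 and 544 CPM in the CEY4 MYC libraries. The difference was 1.70 ± 0.07 SE (adjusted p = 1.52e-22), on top of a control difference of 0.88. asp-3, an aspartyl protease, and cpr-1, a cathepsin B-like protease, were higher, at 1.18 ± 0.08 and 1.14 ± 0.08. Xenobiotic enzymes gave 10 higher (5.99%) and 23 lower (13.8%) of 167 (median -0.14), both under the background shares, with ugt-58 and ugt-64 lower, at -2.06 ± 0.19 and -1.45 ± 0.16 and cyp-44A1 higher, at 0.78 ± 0.11. These 167 genes summed to 640 to 1053 CPM a library, and whether low counts lie behind the low shares was not tested.

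Genes for pqn and abu proteins, which are rich in glutamine and asparagine and include pharyngeal cuticle proteins, leaned higher: 28 of 57 (49.1%) against 3 lower (5.26%; 1 to 3 over the alternatives), with a median of 0.73. pqn-70 had 695 and 672 CPM in the CEY1 FLAG libraries and 109.7 and 97.9 CPM in the CEY1 MYC libraries, and 167 and 177 CPM in the CEY4 FLAG libraries and 119.4 and 126 CPM in the CEY4 MYC libraries, a difference of 2.24 ± 0.09, and pqn-53 and pqn-27 were higher, at 1.61 ± 0.10 and 1.48 ± 0.10. Neuropeptide genes gave 9 higher and 11 lower of 91 (median 0.21), and genes of the synapse and neurons 8 higher and 4 lower of 50 (median 0.25), both under the background. Over all genes the share called rose with level, from 18.1% higher and 18.7% lower to 40.3% and 37.6% at 1000 CPM or more. The 91 neuropeptide genes summed to 157 to 284 CPM a library, and whether low counts lie behind their low shares was not tested. Over the processing alternatives, left-out libraries among them, the neuropeptide counts ran from 2 to 10 higher and from 5 to 12 lower. unc-33 and ida-1 were lower, at -1.14 ± 0.11 and -1.199 ± 0.15, and ehs-1, an endocytic protein, was higher, at 0.85 ± 0.10. flp-5 and flp-18 were lower, at -1.87 ± 0.52 and -1.43 ± 0.28 and flp-8 higher, at 2.48 ± 0.70; these 3 lay under 10 CPM, and flp-8 no longer passed the threshold without CEY1 MYC replicate 2.

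Cuticle collagens had the largest median control difference of the 40 lists. Of 155 tested, 35 were called higher with CEY1 (22.6%) and 29 lower (18.7%), near the background, and the median difference was 0.08. In the control libraries alone, 71 of the 155 were called higher in CEY1 than in CEY4 and 6 lower, with a median of 0.59, against 6.2% and 8.33% of all tested genes. In the FLAG libraries 66 were higher and 13 lower, also with a median of 0.59, against 23.6% and 25.4% of all tested genes. col-19, an adult cuticle collagen, had 3892 and 3484 CPM in the CEY1 FLAG libraries and 868 and 924 CPM in the CEY1 MYC libraries, and 603 and 595 CPM in the CEY4 FLAG libraries and 905 and 820.4 CPM in the CEY4 MYC libraries. Its controls were alike and its difference was 2.57 ± 0.08 SE (adjusted p = 5.86e-27). rol-6, by contrast, had 3.13 and 3.13 CPM in the CEY1 FLAG libraries and 14.4 and 18.5 CPM in the CEY1 MYC libraries, and 4.1 and 4.68 CPM in the CEY4 FLAG libraries and 4.93 and 5.29 CPM in the CEY4 MYC libraries. Here the FLAG groups differed little and the CEY1 controls were high, which makes up most of the difference of -2.19 ± 0.26 SE (adjusted p = 3.18e-09).

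col-161 had 4.73 and 4.86 CPM in the CEY1 FLAG libraries and 19.7 and 18.99 CPM in the CEY1 MYC libraries, and 9.37 and 10.3 CPM in the CEY4 FLAG libraries and 9.14 and 7.72 CPM in the CEY4 MYC libraries. Its CEY1 controls were high and its CEY1 FLAG libraries lay below the CEY4 FLAG ones, for a difference of -2.23 ± 0.22 SE (adjusted p = 2.36e-11). col-142 and col-160 were higher, at 2.65 ± 0.13 and 1.53 ± 0.11. The difference of enrichment subtracts the control part from the FLAG part, and over the 155 collagens both parts had a median of 0.59. Why the controls differed was not tested.

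Over all genes the difference of enrichment was carried mostly by the FLAG libraries. The FLAG part, the log2 ratio of CEY1 FLAG to CEY4 FLAG libraries, was larger in size than the control part in 2444 of the 2751 higher genes (88.8%) and in 2598 of the 2838 lower genes (91.5%). Its median was 0.93 in the higher and -0.82 in the lower genes, while the control part, CEY1 MYC over CEY4 MYC, had medians of -0.08 and -0.01. In the direct comparison of FLAG libraries 49% of tested genes were called, and 2487 of the higher and 2591 of the lower genes were among them in the same direction. In the comparison of controls 14.5% were called, 2208 genes, and 1463 genes without CEY1 MYC replicate 2. A control difference in the opposite direction, which adds to the difference of enrichment, was called in 386 higher and 251 lower genes.

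**Figure D5:**
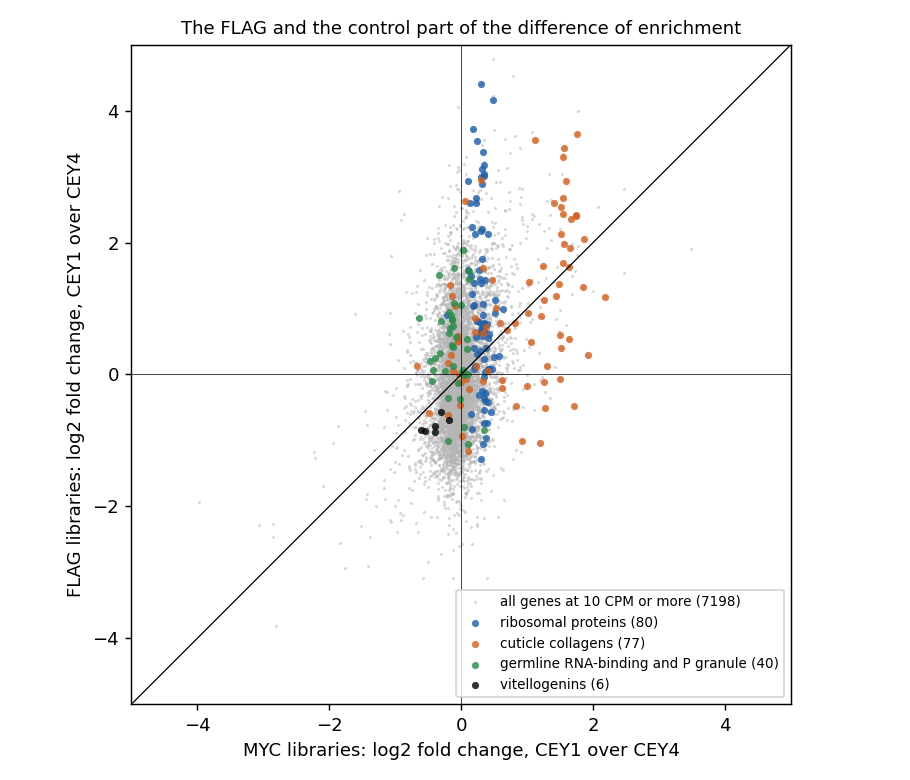
Log2 fold change of CEY1 over CEY4 in the MYC libraries (x axis) and in the FLAG libraries (y axis) for 7198 genes whose highest group reached 10 CPM; a gene on the diagonal has no difference of enrichment. Ribosomal proteins (blue) form a vertical band just right of 0, germline RNA-binding genes (green) lie near 0 on the x axis, vitellogenins (black) are below 0 on both axes, and a set of collagens (orange) stands to the right of 1.

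Of the 8 genes with the most reads in the 8 libraries, 4 were called lower and 4 higher. vit-6, vit-2 and cbd-1 are given above, and eel-1, a HECT ubiquitin ligase, was the fourth lower gene, at 5871 and 5423 CPM in the CEY1 FLAG libraries and 2071 and 1790.2 CPM in the CEY1 MYC libraries, and 10079 and 10426 CPM in the CEY4 FLAG libraries and 1942 and 1919 CPM in the CEY4 MYC libraries. Its controls were alike, and the difference was -0.86 ± 0.07 SE (adjusted p = 3.3e-13). pab-1, eef-1A.1, cpg-1 and rps-0 were the higher ones. pab-1 had 16152 and 15045 CPM in the CEY1 FLAG libraries and 2189 and 2113 CPM in the CEY1 MYC libraries, and 9468 and 9686 CPM in the CEY4 FLAG libraries and 1876 and 1786 CPM in the CEY4 MYC libraries, and cpg-1 had 11574 and 10658 CPM in the CEY1 FLAG libraries and 1468 and 1335 CPM in the CEY1 MYC libraries, and 9652 and 9958 CPM in the CEY4 FLAG libraries and 1571 and 1445 CPM in the CEY4 MYC libraries. Both were strongly enriched with both proteins, also with total-count scaling, so that their differences are changes in the degree of enrichment. The differences of the 4 higher genes ran from 0.29 for cpg-1 to 2.38 for rps-0. With total-count scaling rps-0 had an enrichment of 2.05 in CEY1 and -0.26 in CEY4, and eef-1A.1 0.62 and -0.13. For rps-0 and eef-1A.1 the side of the control in CEY4 thus depends on the scaling.

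Major sperm protein genes gave 0 higher and 0 lower of 10 tested (median 0.33), 0 at an unadjusted p under 0.05, and 0 in DESeq2 and in limma on the deposited log2 values; msp-40, msp-76 and msp-3 lay under 1 CPM in each library. Other sperm genes gave 5 higher and 6 lower of 40 (median -0.15), with spe-39 and spe-44 higher, at 0.81 ± 0.11 and 1.08 ± 0.15. Nuclear receptors gave 18 higher (9.33%) and 30 lower (15.5%; 15 to 32 over the alternatives) of 193 (median -0.17), and nhr-49, a regulator of fat metabolism, was higher, at 1.03 ± 0.10 while nhr-88 and nhr-86 were lower, at -1.27 ± 0.17 and -1.17 ± 0.16. MATH, BATH and Skp1-related genes gave 11 higher and 5 lower of 76 (median 0.06, and -0.02 with total-count scaling), with bath-42, bath-44 and skr-2 higher, at 1.21 ± 0.09, 1.37 ± 0.11 and 1.61 ± 0.16. Somatic gonad genes gave 4 (26.7%) in each direction of 15 (median -0.20), too few to set against the background share. Their counts ran from 3 to 4 higher and from 3 to 5 lower over the alternatives. In the coelomocyte list cup-2 alone of 4 was called, at 1.94 ± 0.11 SE (adjusted p = 2.48e-18).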

How the data were processed

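RNA from FLAG and MYC immunoprecipitates was read from a table of raw read counts per gene, deposited by the authors without normalization. Trizol extraction from beads and the ScriptSeq v2 library kit are stated per the labels' protocols. The aligner, annotation, genome build and counting rules were not given in the labels, headers or notes used here. The authors also deposited log2 values, which equal log2 of a scaled count plus 8 (largest relative deviation 3.8e-05 over counts above 500) and served only as an alternative.

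Of 20182 rows 3 were left out because they carry a sequence name and repeat a gene that is also listed by its gene ID. The table pairs no symbols with IDs, and 18778 of 20179 IDs (93.1%) were matched to a symbol in the name tables supplied. Counts were scaled by TMM, filtered with filterByExpr (minimum count 10) and fitted with edgeR 4.0.16 (R 4.3.3) as 6 group means over all 12 libraries, which pools the spread over groups (common BCV, the spread between replicates as a share of the mean, 0.0476). edgeR's quasi-likelihood F tests were two-sided, with Benjamini-Hochberg adjustment over 15191 genes and a threshold of 0.05. On simulated data the fit was checked against known differences. With 2 libraries a group, replicates correlated at r = 0.977 to 0.994 (log2 CPM) and differed by more than sampling noise. Library totals of 4710522 to 29895167 make the CEY1 controls the shallowest group and limit low genes there first.

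Named genes were the 12 largest called differences in each direction at 10 CPM or more with full separation of the libraries (histone and major sperm protein genes apart), the Y-box and transgene genes, up to 3 genes of lowest adjusted p in each of 40 lists, the 6 largest opposite-sided genes in each direction, and the 8 genes with most reads. The members, lists and tests were chosen with earlier results of these data known, so they are no independent support. Alternatives were total-count and RLE scaling, no filter, a filter of 1 CPM in 2 libraries, DESeq2 1.42.0, limma 3.58.1 on the deposited log2 values, a fit of only the CEY1 and CEY4 libraries, a replicate block, and leaving out each of the 8 libraries. The 4 libraries of the CEY2 strain entered the fit for the spread alone. Sequences are not shown.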

Additional observations from a re-analysis of the deposited data

Results flagged for a closer look

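The enrichment over the MYC control differed between the CEY1 and CEY4 strains, by the test of the difference itself, in 5589 of 15191 genes. The genes below were picked out because they lay, past the threshold, on opposite sides of the control in the 2 strains. With CEY1 higher these were rps-11 at 4.11, ssp-35 at 3.74, rps-28 at 3.67, rpl-25.2 at 3.54, rpl-21 at 3.30 and pqn-94 at 3.20 on the log2 scale. With CEY1 lower they were epic-2 at -2.97, cope-1 at -2.53, aps-1 at -2.52, vha-3 at -2.51, mctp-1 at -2.41 and nas-11 at -2.35. With total-count scaling the enrichments of rps-11, rpl-25.2, rpl-21 and pqn-94 still had opposite signs in the 2 strains (1.16 in CEY1 and -1.96 in CEY4 for pqn-94), and those of the other 8 genes were negative in both. The differences themselves moved little, to 4.04 for rps-11 and -3.04 for epic-2. Groups of 2 libraries are too small to test a library for standing apart from its group.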

How the results depend on the processing

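The count of called differences of enrichment, 5589, was 5734 with total-count scaling, 4755 in DESeq2, 4918 in limma on the deposited log2 values, and 4830 to 5534 without 1 library. Of these calls 5337, 4748 and 4576 were shared, in the same direction, with total-count scaling, DESeq2 and limma. The comparison of the controls, CEY1 MYC against CEY4 MYC, gave 2208 genes, 1397 in DESeq2 and 1463 to 2363 without 1 library, the lowest without CEY1 MYC replicate 2. Named genes kept their direction and their side of the threshold in 2286 recomputed values, gained a call in 8 (7 of them for lin-28), lost one in 2 and turned in 3. The sign turned for msp-3, 1.96 and not called, at -0.0069 in limma on the deposited values, -0.35 without CEY1 FLAG replicate 1 and 7.82 at the most without 1 library, and for dpy-30, not called, between -0.87 and 0.033 without 1 library. cbd-1 lost its call with only the CEY1 and CEY4 libraries (adjusted p = 0.088) and flp-8 without CEY1 MYC replicate 2 (adjusted p = 0.0781), and the cause was not tested. Counts of called list members moved by over 1.5 times in 36 recomputed values and by less in 1244. List medians moved by more than 1 SD between replicates in 151 recomputed values and by less in 489. Of the 40 list medians 25 kept their sign under every alternative and 15 changed it: glycolysis ran from -0.0042 to 0.37, neuropeptides from -0.07 to 0.46, histones from -0.36 to 0.05, collagens from -0.10 to 0.25, intestine from -0.07 to 0.24, coelomocytes from -0.05 to 0.61, major sperm proteins from -0.02 to 1.77 and nuclear receptors from -0.34 to 0.0035. Chaperones, chromatin, MATH, BATH and Skp1-related genes, nuclear pore and transport, proteasome, translation factors and xenobiotic enzymes, each with a median between -0.14 and 0.06, were the other 7. The pharynx median ran from -0.47 to -0.02 and that of the somatic gonad from -0.51 to -0.04. Deviations of same-numbered libraries correlated across genes at -0.03 to 0.01, and a fit with the replicate block called 5592 genes. Sampling noise in genes of few counts can hide a shared deviation, so whether the replicate numbers pair the libraries was not settled. Opposite-sided genes numbered 420 higher and 255 lower with total-count scaling, with 28 and 1 shared with the main scaling. The low depth of the CEY1 controls limits genes of few counts.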
